A study of Schizosaccharomyces pombe with 12 samples.

Results

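Aldo-keto reductases are enzymes that reduce aldehydes and ketones to alcohols with NADPH or NADH, and 10 *S. pombe* genes annotated to the family are described here. They were taken by gene identifier from the 4857 *S. pombe* genes of the deposited count table: SPAC1F7.12 (*yak3+*), SPAC26F1.07, SPBC8E4.04, SPBC215.11c, SPAC9E9.11 (*plr1+*), SPCC1281.04 (*akr7+*), SPAC19G12.09, SPAP32A8.02, SPAC2F3.05c and SPBC28F2.05c. The choice used no measured value of these libraries, but it was made with earlier results of them known. All 10 passed the filter on low counts, with between 381 counts (*akr7+*) and 51278 counts (SPAC19G12.09) in a library.

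The study asked how haploid and diploid fission yeast change their transcripts under methyl methanesulfonate (MMS), a compound that alkylates DNA bases. It sequenced polyadenylated RNA of 12 libraries, 3 each of diploid MMS, haploid MMS, diploid NT and haploid NT (no treatment). Cells grew at 32 °C in rich medium, each culture was divided, and its parts grew for 4 h with 0.0075% MMS or without. RNA came from equal numbers of cells and received the same amount of ERCC spike-ins, synthetic RNAs of known sequence. Each ploidy was represented by 1 strain, and the diploid was made by fusing protoplasts. Both strains are of mating type *h-* with *smt-0*, which blocks mating-type switching, and both carry *leu1-32* and the deletions *ura4-D18* and *his3D-1*, on all copies in the diploid. At *ade6* the diploid has *ade6-M216* on one copy and *ade6-M210* on the other, and the haploid has *ade6-M210*. A property of the strain cannot be told apart from ploidy. The study calls the replicates biological, and MMS and NT libraries with the same ploidy and number were taken as parts of one divided culture.

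Members of the family share a barrel-shaped fold and differ in the carbonyl they act on. Aldose reductases act on sugar aldehydes and also on reactive aldehydes that form when lipids or sugars are damaged, which is why the family is known for detoxification in yeasts and animals. Pyridoxal reductases turn pyridoxal into pyridoxine and so belong to the salvage of vitamin B6, the cofactor of aminotransferases. By annotation, *yak3+* encodes an aldose reductase family protein implicated in detoxification and SPAC26F1.07 an NADPH-dependent aldo-keto reductase. SPBC8E4.04 and SPBC215.11c are annotated to the family without a substrate. *plr1+* and *akr7+* encode pyridoxal reductases, SPAC19G12.09 an indole-3-acetaldehyde reductase, and SPAP32A8.02, SPAC2F3.05c and SPBC28F2.05c reductases of xylose and arabinose.

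Of the 10 genes in the deposited table, 6 lie on chromosome I, 3 on chromosome II and 1 on chromosome III, each as a single exon. The table's coordinates were taken as those of build ASM294v3, since 99.7% of 4855 genes had at least 1 end identical to its RefSeq annotation. The other end can differ, as RefSeq starts *yak3+* at 4248932, SPAC26F1.07 at 5172071 and SPBC215.11c at 4051441. By the table's coordinates *yak3+* spans chrI:4248777-4250231 on the plus strand, with a coding sequence of 1023 bases. There it has 289 bases of 5′ untranslated region and 143 bases of 3′ untranslated region. SPAC26F1.07 spans chrI:5170789-5172112 on the minus strand, with a coding sequence of 966 bases. SPBC215.11c spans chrII:4050360-4051532 on the minus strand, with 921 coding bases, and *plr1+* spans chrI:4461697-4462901 on the plus strand, with 1002 coding bases. The gene model of SPAP32A8.02 is 3826 bases long for 852 coding bases, and 54.5% of it lies over *bop1+* on the opposite strand. The sources used here do not give the strand setting of the counting, so counts of SPAP32A8.02 are uncertain. SPBC28F2.05c overlaps its neighbour *mdm12+* on the same strand by 61 bases.

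Translated coding sequences were compared to see which members are close copies. Identical residues, as a share of the shorter protein, made up 74.5% for the pyridoxal reductases *akr7+* and *plr1+*. They made up 62.9% for SPAC26F1.07 and SPBC8E4.04, and 45.5% for SPAC2F3.05c and SPAP32A8.02. None of the 10 had a stretch of 50 bases that occurs elsewhere in the genome, so no read of that length matches another place exactly.

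Promoters of 4 members are shown because they hold the stress-response motifs that were searched. Promoters of the other members held none of the motifs, among them those of *yak3+* and SPBC8E4.04, which were called up in haploid MMS below. Each promoter is the 250 bases before the first base of the gene model in the deposited table. It was read from the RefSeq sequence of build ASM294v3, 5′ to 3′ on the strand of the gene, with motifs in capitals. The regions are chrI:5172113-5172362 (minus strand) for SPAC26F1.07, chrII:4051533-4051782 (minus) for SPBC215.11c, chrI:4461447-4461696 (plus) for *plr1+* and chrI:4059730-4059979 (plus) for SPAC19G12.09.
SPAC26F1.07: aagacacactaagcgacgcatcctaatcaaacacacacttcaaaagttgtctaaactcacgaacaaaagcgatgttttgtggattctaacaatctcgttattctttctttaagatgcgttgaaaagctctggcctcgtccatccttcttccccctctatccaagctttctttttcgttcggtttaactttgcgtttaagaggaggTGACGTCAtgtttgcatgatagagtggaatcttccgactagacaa
SPBC215.11c: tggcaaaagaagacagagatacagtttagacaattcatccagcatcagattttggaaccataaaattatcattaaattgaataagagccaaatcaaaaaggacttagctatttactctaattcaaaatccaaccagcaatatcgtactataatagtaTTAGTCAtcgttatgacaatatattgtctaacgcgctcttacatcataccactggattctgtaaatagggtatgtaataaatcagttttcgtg
plr1: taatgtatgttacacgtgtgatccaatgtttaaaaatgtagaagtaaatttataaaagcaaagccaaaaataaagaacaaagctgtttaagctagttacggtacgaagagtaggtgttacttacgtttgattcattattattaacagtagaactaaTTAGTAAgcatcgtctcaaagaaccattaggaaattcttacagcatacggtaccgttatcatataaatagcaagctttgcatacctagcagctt
SPAC19G12.09: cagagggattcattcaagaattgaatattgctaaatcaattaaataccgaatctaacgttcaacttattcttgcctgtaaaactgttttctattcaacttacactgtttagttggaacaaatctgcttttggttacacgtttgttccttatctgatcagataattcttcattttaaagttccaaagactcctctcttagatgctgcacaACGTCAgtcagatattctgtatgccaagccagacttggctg

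As background, Atf1-Pcr1 is a stress-activated factor that binds sites of the form TGACGTCA, whose shorter part TGACGT was also searched, and Pap1 is the AP-1-type factor of the oxidative stress response in *S. pombe*. TGACGTCA was found 45 bases before the start of SPAC26F1.07, and in 0.35% of the promoters of 4855 genes. It was added to the search after the promoters had been read. TGACGT, which overlaps it, was found in SPAC26F1.07 on both strands and in SPAC19G12.09 on the minus strand (printed as ACGTCA), and in 4.39% of all promoters. Of the AP-1-type letters, TTAGTCA stood 93 bases before the start of SPBC215.11c (4.1% of all promoters) and TTAGTAA stood 94 bases before the start of *plr1+* (11% of all promoters), while TTACGTAA was in none of the 10 (0.453% of all promoters). Any of these 3 AP-1-type sites was in 2 of the 10 members and in 14.9% of all promoters. ACGCGT, the letters bound by the cell-cycle factor MBF, was in none of the 10 (2.35% of all promoters). Both strands were searched. Distances are from the starts in the deposited table, which lie upstream of the RefSeq starts for SPAC26F1.07, SPBC215.11c and SPAC19G12.09. A match describes letters only, and binding of a factor was not measured.

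Total counts ran from 18079041 to 26400719 in diploid MMS, from 21140150 to 26493886 in haploid MMS, from 16624286 to 19117356 in diploid NT and from 16288362 to 17655750 in haploid NT. As a check of the strains, the deleted *ura4+* had 0 counts in all 12 libraries and *his3+* had between 1 and 10. Expression is shown as CPM, the count of a gene relative to a library size scaled by TMM, which holds the bulk of the genes level. Every direction below is therefore relative to the median gene of the cell. Scaled to spike-ins, the median gene shifted by 1.44 (log2) in diploid MMS over haploid MMS, by 0.84 in diploid NT over haploid NT, by 0.02 in diploid MMS over diploid NT and by -0.60 in haploid MMS over haploid NT. Haploid NT 1 stood apart from the other haploid NT libraries, with 1.90% of its counts in spike-ins where the group's highest was 3.71%. The shifts that involve haploid NT depended on it. Without it, a choice made after the data were seen, the spike-in shift of the median gene was -0.22 in haploid MMS over haploid NT and 1.22 in diploid NT over haploid NT.

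Seen as levels per length (RPKM), the family spans more than an order of magnitude within each condition. SPAC19G12.09 was the most abundant member in all conditions, at 1062 ± 200 RPKM in diploid MMS, 1536 ± 291 in haploid MMS, 691 ± 68.8 in diploid NT and 952 ± 286 in haploid NT (SD, n = 3 each). *akr7+* and SPAP32A8.02 held the lowest 2 ranks in all conditions, and their ranges overlapped in each. In diploid MMS *akr7+* was at 19.6 ± 1.37 RPKM and SPAP32A8.02 at 22.6 ± 3.08 RPKM, where the median of 4584 genes tested was 58.2 RPKM. The long model of SPAP32A8.02 lowers its value per length. Between these ends the order depended on condition. *yak3+* ranked directly below SPAC19G12.09 in haploid MMS (685 ± 13.3 RPKM) and haploid NT (366 ± 71.5 RPKM), with ranges that overlapped no neighbour. In diploid MMS (395 ± 76.2 RPKM) it ranked below SPBC8E4.04 (428 ± 47.9 RPKM), with overlapping ranges. In diploid NT (199 ± 18.5 RPKM) it ranked below SPBC8E4.04 (309.8 ± 42.5 RPKM), without overlap, and below *plr1+* (250.1 ± 39.9 RPKM), with overlap. The family's median was 203 RPKM in diploid MMS, 321 in haploid MMS, 148 in diploid NT and 139 in haploid NT.

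Together the 10 genes took a larger share of the counts in MMS libraries than in NT libraries of the same ploidy. The share was 0.413%, 0.347% and 0.339% in diploid MMS 1, 2 and 3, against 0.262%, 0.220% and 0.244% in diploid NT 1, 2 and 3. In haploid MMS it was 0.450%, 0.555% and 0.539%, against 0.249%, 0.347% and 0.307% in haploid NT. The sum is weighted to abundant members. In haploid MMS 2, for example, SPAC19G12.09 had 44203 counts, *yak3+* 21273 and *akr7+* 582. The groups of a ploidy did not overlap, and no test was run on this sum because the members were chosen with results known.

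**Figure D1:**
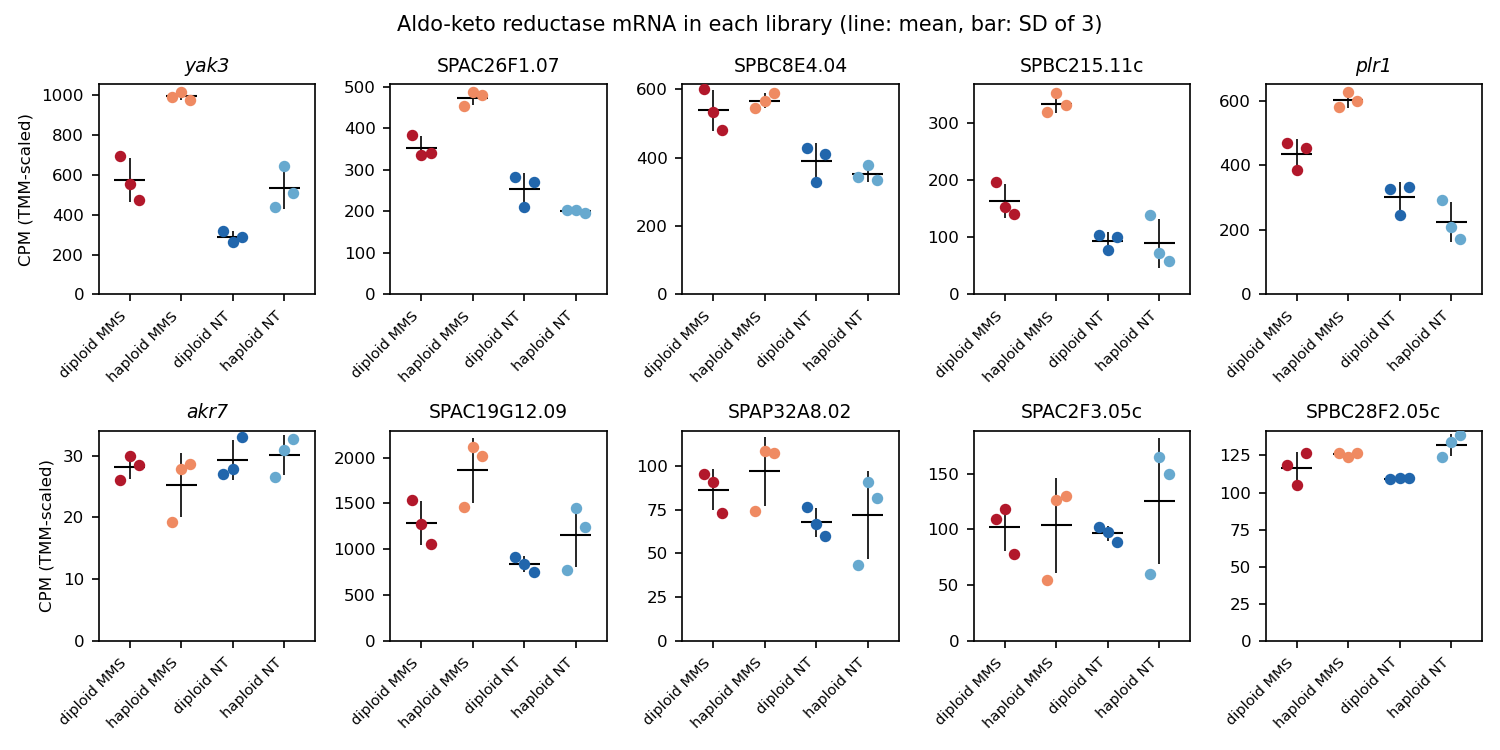
Expression of the 10 aldo-keto reductases in each of 12 libraries, as TMM-scaled CPM on axes that start at 0, with the mean (line) and SD (bar) of 3 libraries per condition. The mean is highest in haploid MMS for *yak3+*, SPAC26F1.07, SPBC8E4.04, SPBC215.11c, *plr1+*, SPAC19G12.09 and SPAP32A8.02. The low points of SPAC2F3.05c, SPAC19G12.09 and SPAP32A8.02 in the haploid groups are replicate 1.

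How the family responded to MMS was compared within each ploidy. In diploids 1 of the 10 genes, *yak3+*, rose past the test, and in haploids 5 rose: *yak3+*, SPAC26F1.07, SPBC8E4.04, SPBC215.11c and *plr1+*. None fell in either ploidy, also at an unadjusted p under 0.05 (0 genes) and in DESeq2 (0 genes). Few of all genes were called down, 16 in diploids and 49 in haploids by edgeR, and 27 and 82 by DESeq2. The share of all genes down at an unadjusted p under 0.05 was not counted. A gene was called at a Benjamini-Hochberg adjusted p under 0.05 in edgeR's quasi-likelihood test and an absolute log2 fold change (log2FC) above 0.58, and by that rule 0.589% of the 4584 genes tested were called up in diploids and 1.64% in haploids. The median log2FC of the 10 members was 0.47 in diploids, where that of all genes was 0.01, and 0.69 in haploids, where that of all genes was -0.02. At an unadjusted p under 0.05 edgeR had 6 members up in each ploidy, the 5 named and SPAC19G12.09, where 8.73% of all genes were up in diploids and 12.7% in haploids. With spike-in scaling edgeR called none of the 10 in either ploidy, although the genes named kept a positive log2FC. At an unadjusted p under 0.05 that scaling had 3 members up in diploids (1.81% of all genes), and 3 up (0.524%) and 3 down (50.4%) in haploids. Without haploid NT 1, spike-in scaling called 3 members up in haploids, SPAC26F1.07 (1.01), SPBC215.11c (2.13) and *plr1+* (1.43), and 0.676% of all genes. Counts average over a culture, so a change in the share of cells that express a gene and a change in RNA per cell cannot be told apart. Where groups of a member are said below not to overlap, the share of all genes without overlap was not counted.

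*yak3+* rose in both ploidies, at a lower level in diploids. Its CPM was 695, 552 and 476 in diploid MMS 1, 2 and 3, against 317, 263 and 289 in diploid NT. In haploids it was 994, 1017 and 978 in MMS, against 441, 646 and 511 in NT. No MMS library reached down to an NT library of its ploidy. The log2FC was 0.99 ± 0.16 (SE) in diploids (edgeR adjusted p = 0.0184) and 0.90 ± 0.16 in haploids (adjusted p = 0.0110). The diploid call was lost without diploid MMS 1 (adjusted p = 0.0845), diploid NT 1 (0.0662), diploid NT 2 (0.119) or diploid NT 3 (0.0670), and held without diploid MMS 2 (0.0475) or diploid MMS 3 (0.0131). The haploid call was lost without haploid MMS 2 (0.0520) or haploid NT 3 (0.0538).

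SPAC26F1.07 had the smallest adjusted p of the family in haploids. Its CPM was 384, 336 and 341 in diploid MMS 1, 2 and 3, against 282, 210 and 271 in diploid NT. In haploid MMS it was 453, 487 and 479, against 203, 203 and 196 in haploid NT, with all replicates of a group close to each other. Its log2FC in haploids was 1.24 ± 0.11 (edgeR adjusted p = 0.000374), and it stayed called with each of the 6 haploid libraries left out (adjusted p at most 0.00457). In diploids the log2FC was 0.48 ± 0.11 and did not pass (adjusted p = 0.0584), although the groups did not overlap. Its relative SPBC8E4.04 had 600, 533 and 480 CPM in diploid MMS, against 427, 328 and 411 CPM in diploid NT. In haploid MMS SPBC8E4.04 had 544, 567 and 589 CPM, against 342, 378 and 335 CPM in haploid NT. Neither pair of groups overlapped, and the log2FC was 0.47 ± 0.12 in diploids (adjusted p = 0.0798, not called) and 0.69 ± 0.12 in haploids (adjusted p = 0.00976). The haploid call of SPBC8E4.04 was lost without haploid NT 3 (adjusted p = 0.0531).

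SPBC215.11c, a family member with no annotated substrate, had the largest fold change of the 10 in haploids. Its CPM was 197, 152 and 141 in diploid MMS 1, 2 and 3, against 104, 78.0 and 101 in diploid NT. In haploid MMS it was 320, 353 and 332, against 139, 72.2 and 58.3 in haploid NT. MMS libraries lay above NT libraries in both ploidies, and haploid NT 1 had 2.13 times the mean of haploid NT 2 and 3. The log2FC was 0.79 ± 0.27 in diploids (edgeR adjusted p = 0.182, not called) and 1.90 ± 0.27 in haploids (adjusted p = 0.00389), a fold of 3.72.

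Of the pyridoxal reductases, *plr1+* rose in haploids and *akr7+*, its closest relative, was not called in either ploidy. *plr1+* had 468, 385 and 454 CPM in diploid MMS 1, 2 and 3, against 325, 246 and 333 CPM in diploid NT. In haploid MMS it had 581, 627 and 598 CPM, against 293, 208 and 173 CPM in haploid NT. Groups of a ploidy did not overlap, and haploid NT 1 was again the highest of the haploid NT libraries, at 1.54 times the mean of the others. The log2FC of *plr1+* was 0.53 ± 0.18 in diploids (edgeR adjusted p = 0.182, not called) and 1.42 ± 0.18 in haploids (adjusted p = 0.00182). *akr7+*, the less abundant of the pair, had 26.05, 29.9 and 28.5 CPM in diploid MMS, against 27.0, 27.9 and 33.0 CPM in diploid NT. In haploid MMS *akr7+* had 19.3, 27.8 and 28.6 CPM, against 26.6, 31.0 and 32.8 CPM in haploid NT. Its groups overlapped in both ploidies, with a log2FC of -0.06 ± 0.16 in diploids (adjusted p = 0.930) and -0.25 ± 0.16 in haploids (adjusted p = 0.369).

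SPAC19G12.09, the indole-3-acetaldehyde reductase, was higher in each MMS library than in any NT library of its ploidy, but its replicates were wide apart. Its CPM was 1537, 1274 and 1053 in diploid MMS 1, 2 and 3, against 920, 839 and 753 in diploid NT. In haploid MMS it was 1459, 2113 and 2018, against 774, 1454 and 1237 in haploid NT. The lowest haploid MMS library and the highest haploid NT library were almost level. The log2FC was 0.62 ± 0.23 in diploids (edgeR adjusted p = 0.233) and 0.69 ± 0.23 in haploids (adjusted p = 0.102), and neither was called. DESeq2 called it in haploids (0.68, DESeq2 adjusted p = 0.0350), which made 6 members called up there, where DESeq2 called 2.03% of all genes.

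The reductases annotated to xylose and arabinose were not called in either ploidy. SPAP32A8.02 had 95.6, 90.8 and 73.2 CPM in diploid MMS 1, 2 and 3, against 76.6, 66.95 and 59.8 CPM in diploid NT, and its log2FC was 0.35 ± 0.24 (edgeR adjusted p = 0.579). In haploid MMS it had 74.4, 109 and 107 CPM, against 43.2, 91.0 and 81.6 CPM in haploid NT, and its log2FC was 0.43 ± 0.24 (adjusted p = 0.325). SPAC2F3.05c ranged from 77.9 to 119 CPM in diploid MMS, against 88.8 to 102 CPM in diploid NT, and from 54.6 to 130 CPM in haploid MMS, against 60.4 to 165 CPM in haploid NT. Its log2FC was 0.08 ± 0.37 in diploids and -0.27 ± 0.37 in haploids. SPBC28F2.05c ranged from 105 to 127 CPM in diploid MMS, against 109 to 110 CPM in diploid NT, and from 124 to 127 CPM in haploid MMS, against 124 to 139 CPM in haploid NT. Its log2FC was 0.09 ± 0.08 in diploids and -0.07 ± 0.08 in haploids.

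**Figure D2:**
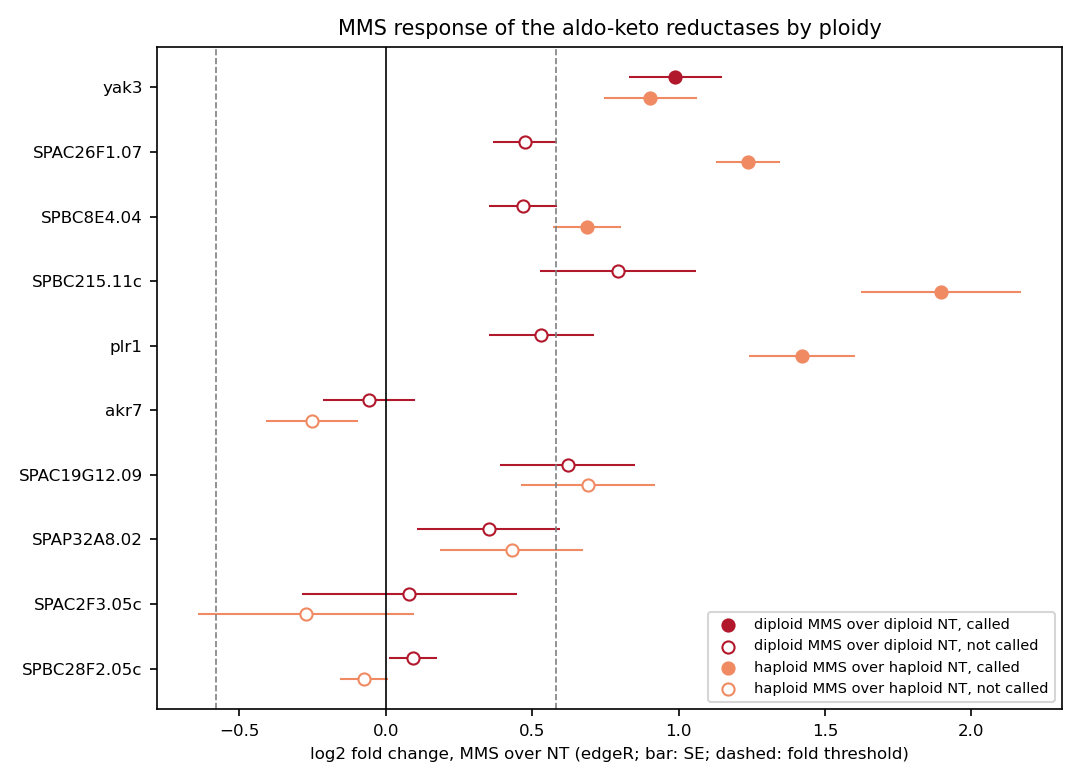
Log2 fold change of each gene in MMS over NT from edgeR, with the SE as a bar, for diploids (upper, dark) and haploids (lower, light). Filled points were called and dashed lines mark the fold threshold of 0.58. SPAC26F1.07, SPBC215.11c and *plr1+* lie furthest to the right in haploids, at 1.24, 1.90 and 1.42, and nearer to 0 in diploids, at 0.48, 0.79 and 0.53.

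Since each culture was divided, MMS and NT libraries that share a ploidy and a number were also set against each other. In diploids 7 of the 10 genes were higher in MMS than in NT in all 3 cultures, as were 25.2% of the genes tested, and none was lower in all 3, as were 21.4%. In haploids 7 were higher in all 3 (29.8% of the genes tested) and 2 were lower (30.3%). In both ploidies the 7 were the 5 called in haploids, SPAC19G12.09 and SPAP32A8.02. When the culture entered the fit as a block, SPAC19G12.09 was called as well, with a log2FC of 0.61 in diploids (edgeR adjusted p = 0.00687) and 0.72 in haploids (adjusted p = 0.00239). This made 2 of 10 members called up in diploids, where 1.51% of all genes were called up by the blocked fit, and 6 of 10 in haploids, where 2.42% were. Within cultures the log2 ratio of SPAC26F1.07 ran from 0.33 to 0.68 in diploids and from 1.16 to 1.29 in haploids. That of *plr1+* ran from 0.45 to 0.64 in diploids and from 0.99 to 1.79 in haploids, and that of SPBC215.11c from 0.48 to 0.97 in diploids and from 1.20 to 2.51 in haploids. These genes were picked as the members with the largest haploid log2FC, which favours a haploid ratio above the diploid ones. For them every haploid ratio exceeded every diploid ratio of the same gene with TMM scaling. The share of all genes with that order was not counted. With spike-in scaling that order held for haploid cultures 2 and 3. Haploid culture 1, at 0.09 for SPAC26F1.07, -0.09 for *plr1+* and 0.13 for SPBC215.11c, lay below all diploid ratios of the same gene. The lowest diploid ratios with that scaling were 0.29, 0.37 and 0.76 for these genes. With TMM scaling the ratios of *yak3+* overlapped, from 0.72 to 1.13 in diploids and from 0.65 to 1.17 in haploids. Those of SPBC8E4.04 overlapped too, from 0.22 to 0.70 in diploids and from 0.59 to 0.81 in haploids.

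**Figure D3:**
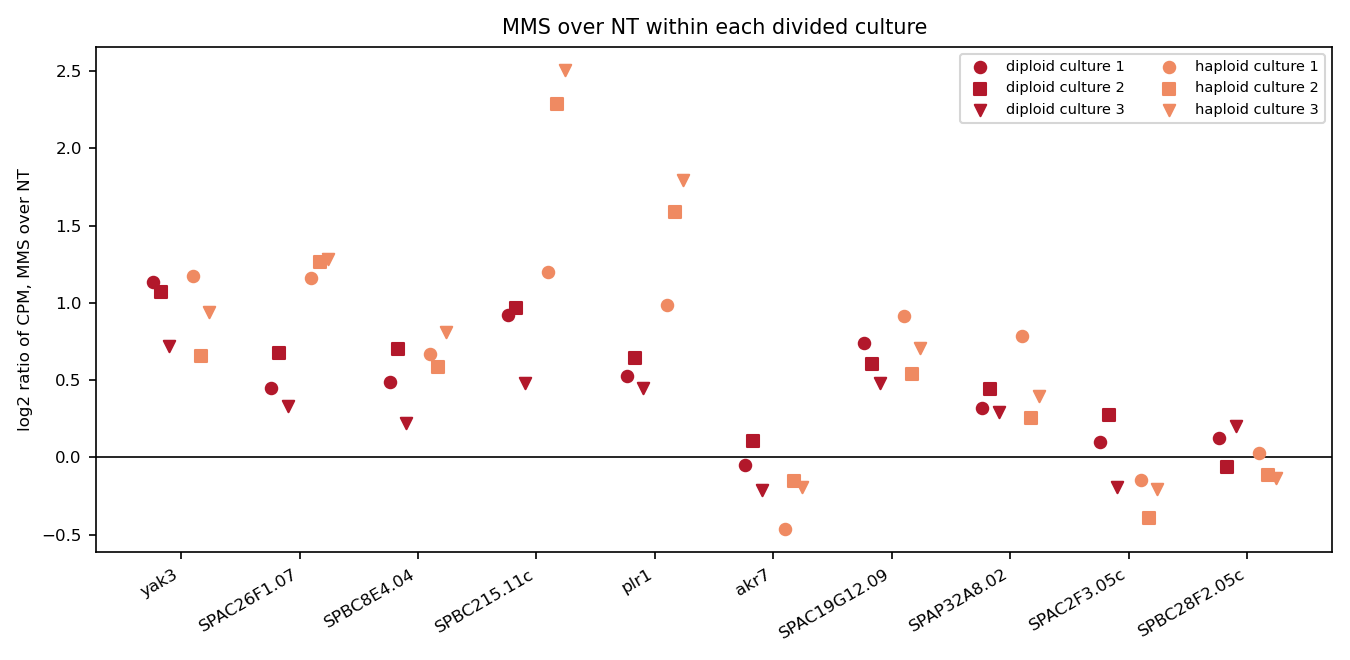
Log2 ratio of CPM in MMS over NT for libraries of the same number, taken as parts of one culture, with diploid cultures on the left and haploid cultures on the right of each gene. The marker gives the culture number. Haploid culture 1 has the lowest haploid ratio for SPBC215.11c (1.20) and *plr1+* (0.99), which with the TMM scaling plotted lies above the diploid ratios.

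Haploid culture 1 differed from haploid cultures 2 and 3 in members of the family both with and without MMS. SPAC2F3.05c stood at 0.426 times the mean of replicates 2 and 3 in haploid MMS 1 and at 0.383 times that mean in haploid NT 1. SPAC19G12.09 stood at 0.706 and 0.575 times, and SPAP32A8.02 at 0.688 and 0.501 times, in the same libraries. The elevated SPBC215.11c and *plr1+* of haploid NT 1 had no counterpart in haploid MMS 1, which stood at 0.934 and 0.949 times the mean of the others. When both libraries of culture 1 were left out, a choice made after the data were seen, 3 members were called up in diploid MMS over diploid NT (*yak3+*, SPAC19G12.09 and SPBC215.11c) and 6 in haploid MMS over haploid NT (SPAC19G12.09 beside the 5). In these fits 1.46% of all genes were called up in diploids and 2.51% in haploids. The haploid log2FC of SPBC215.11c was then 2.38 (edgeR adjusted p = 0.00112) and that of *plr1+* 1.68 (adjusted p = 0.00112).

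Whether the MMS response itself differed by ploidy was tested as an interaction, the diploid response minus the haploid response. No member passed, and 0.0% of all genes did in edgeR, where the smallest adjusted p of any gene was 0.999. At an unadjusted p under 0.05 there were 155 genes (3.38%), among them 3 of the 10 members. Those were SPAC26F1.07 (log2 difference -0.76 ± 0.15), *plr1+* (-0.89 ± 0.25) and SPBC215.11c (-1.10 ± 0.37), each with a smaller rise in diploids, but none held after adjustment. With spike-in scaling the differences were -0.16 ± 0.37 for SPAC26F1.07, -0.19 ± 0.45 for *plr1+* and -0.37 ± 0.53 for SPBC215.11c, where that of the median gene was 0.61. With that scaling and without haploid NT 1 they were -0.53 ± 0.21, -0.88 ± 0.24 and -1.35 ± 0.22, where that of the median gene was 0.24, and none was called. *yak3+* had a difference of 0.09 ± 0.22. DESeq2, fitted to the same genes, called 1 gene in all (0.0218% of those it gave an adjusted p), and that gene was SPAC26F1.07, with a difference of -0.75 (DESeq2 adjusted p = 0.0420). When the divided culture entered the fit as a block, edgeR gave a difference of -0.75 for SPAC26F1.07 (adjusted p = 0.161) and called no gene.

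Without treatment, the family was compared between diploids and haploids. *yak3+* was lower in diploids, and none of the 10 was higher past edgeR's test, where 2 were higher at an unadjusted p under 0.05 (SPAC26F1.07 and *plr1+*, 9.42% of all genes) and DESeq2 called 0. The CPM of *yak3+* given above, 263 to 317 in diploid NT, against 441 to 646 in haploid NT, did not overlap. Its log2FC was -0.88 ± 0.16 (edgeR adjusted p = 0.00887). By the same rule 1.79% of all genes were called lower in diploid NT and 1.11% higher. Without diploid NT 2 the adjusted p of *yak3+* was 0.0514. With spike-in scaling its log2FC was 0.01 (edgeR adjusted p = 0.951), where that of the median gene was 0.84.

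Other members differed less between the untreated strains. SPBC28F2.05c (log2FC -0.27 ± 0.08, edgeR adjusted p = 0.0782) and SPAC26F1.07 (0.34 ± 0.11, adjusted p = 0.0904) were not called. Their groups did not overlap, but the share of all genes without overlap was not counted. Haploid NT 1 decided the calls of 2 genes. With it left out, *plr1+* was higher in diploids (0.65, adjusted p = 0.0174) and SPAC19G12.09 lower (-0.69, adjusted p = 0.0342), where 2.94% of all genes were called higher and 3.29% lower. With both libraries of haploid culture 1 left out, 3 members were lower (*yak3+*, SPAC19G12.09 and SPAC2F3.05c) and 1 was higher (*plr1+*), where 3.77% of all genes were lower and 3.73% higher.

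Under MMS, *yak3+* was again the lone member called between diploids and haploids, and it was lower in diploids. Its 476 to 695 CPM in diploid MMS, against 978 to 1017 CPM in haploid MMS, gave a log2FC of -0.79 ± 0.16 (edgeR adjusted p = 0.0441). In this comparison 0.24% of all genes were called lower and 0.305% higher. The call was lost in 5 of the 6 fits that left out a library (adjusted p up to 0.163) and when the fit held only these 2 conditions (adjusted p = 0.133). SPBC215.11c, at 141 to 197 CPM in diploid MMS, against 320 to 353 CPM in haploid MMS, had a larger difference of -1.03 ± 0.27 that edgeR did not call (adjusted p = 0.111) and DESeq2 did (DESeq2 adjusted p = 0.00658). SPAC26F1.07 (-0.42 ± 0.11, edgeR adjusted p = 0.111) and *plr1+* (-0.47 ± 0.18, adjusted p = 0.255) were not called. Their groups did not overlap, but the share of all genes without overlap was not counted. Without haploid culture 1, 3 members were lower in diploid MMS, namely *yak3+*, SPBC215.11c and SPAC19G12.09, and 0.697% of all genes were. All these directions are relative to the median gene. With spike-in scaling 9 members were called higher in diploid MMS, as were 99.2% of all genes, and SPBC215.11c was at 0.38 without a call. Of the 10, *akr7+* alone (1.59) lay above the median gene at 1.44.

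**Figure D4:**
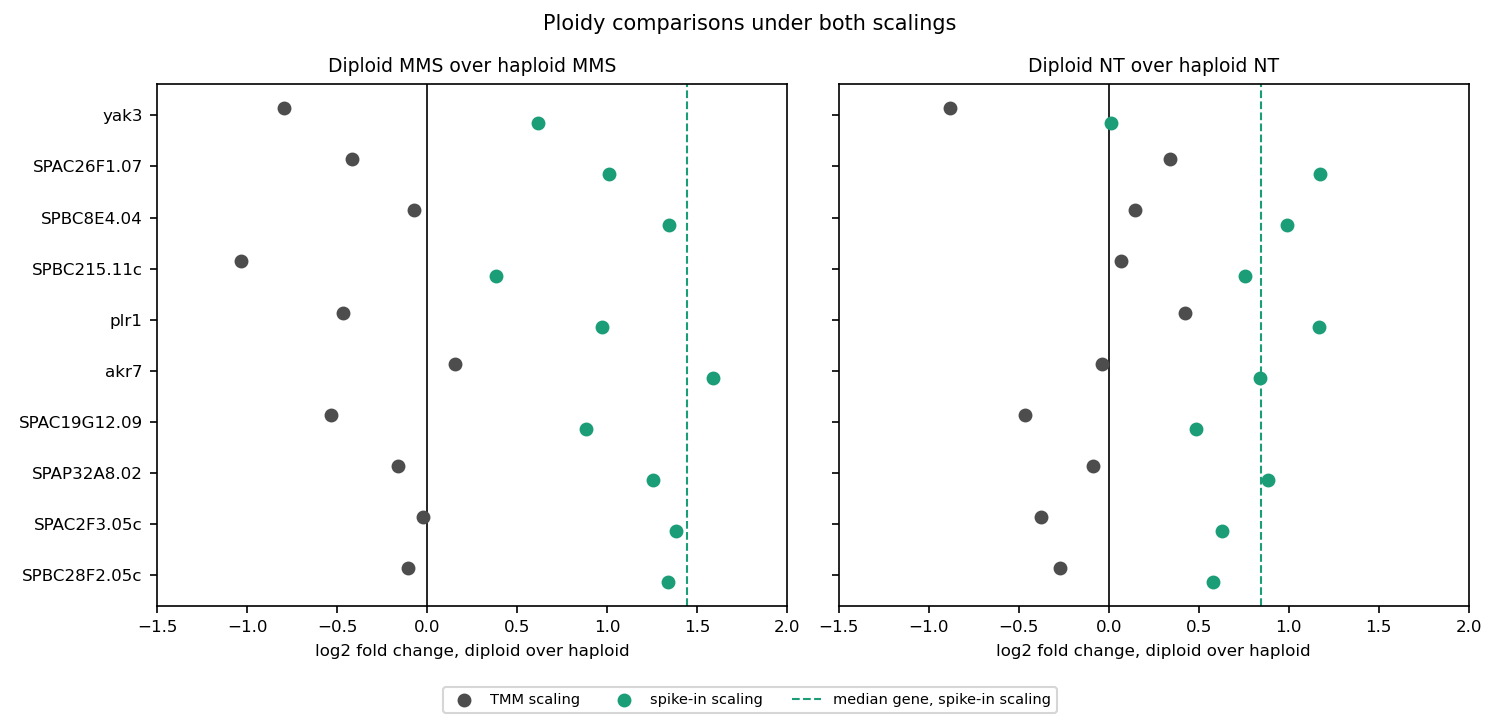
Log2 fold change of each gene in diploids over haploids, in MMS (left) and NT (right), with TMM scaling (grey) and spike-in scaling (green). The dashed line is the median of all genes with spike-in scaling, at 1.44 in MMS and 0.84 in NT. *yak3+* lies left of that line in both panels, at 0.62 and 0.01.

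Gene groups that work beside the family were described from lists chosen with earlier results of these data known, so their counts are no independent evidence. Most reductases of the family draw on NADPH, which the pentose phosphate pathway supplies. Of 11 genes tested for NADPH supply, 1 was called up in diploid MMS over diploid NT and 3 in haploid MMS over haploid NT, and none down. *zwf1+*, glucose-6-phosphate dehydrogenase at the entry of the pathway, had a log2FC of 0.70 ± 0.14 in diploids (edgeR adjusted p = 0.0412) and 1.22 ± 0.14 in haploids (adjusted p = 0.00182). *gnd1+* and *tal1+*, further down the pathway, were called in haploids at 0.60 ± 0.12 and 0.60 ± 0.13. The median log2FC of this list was -0.05 in diploids and 0.42 in haploids.

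Of 17 genes for removal of aldehydes and methylglyoxal by other enzymes, 2 were called up in each ploidy. *hsp3104+*, a glyoxalase III, had a log2FC of 1.40 ± 0.28 in diploids (edgeR adjusted p = 0.0392) and 2.64 ± 0.29 in haploids (adjusted p = 0.00165). *fmd1+*, a formaldehyde dehydrogenase that uses glutathione, had 0.61 ± 0.12 in diploids (adjusted p = 0.0412) and 0.98 ± 0.12 in haploids (adjusted p = 0.00182). Of 26 antioxidant enzymes, 1 was called up in diploids and 7 up and 1 down in haploids. *tpx1+*, the main peroxiredoxin, had 1.09 ± 0.13 in diploids (adjusted p = 0.00481) and 1.53 ± 0.14 in haploids (adjusted p = 0.000374). In haploids thioredoxin *trx1+* (0.81 ± 0.13) and catalase *ctt1+* (1.66 ± 0.32) were also called up, and the gene called down was the glutathione transferase *gst1+* (-0.69 ± 0.16), named after its value was seen.

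Of 7 other NAD(P)H oxidoreductases 2 were called up in haploids, the quinone reductases *zta1+* (0.67 ± 0.13, edgeR adjusted p = 0.0169) and *obr1+* (1.073 ± 0.26, adjusted p = 0.0379), and none in diploids. Of 18 genes of the general stress response 1 was called up in each ploidy, the metallothionein *zym1+* in diploids (1.37 ± 0.29) and *ctt1+* in haploids. With spike-in scaling the called genes of these lists kept their sign under MMS, and of those the call held for *tpx1+*, *hsp3104+* and *gst1+* in haploids and *zym1+* in diploids. Between untreated strains, *mae2+*, annotated as a malate dehydrogenase, was higher in diploids (1.68 ± 0.17, edgeR adjusted p = 0.000812). So were *yhb1+* (0.96 ± 0.23, adjusted p = 0.0358) and *ssa2+* (0.90 ± 0.22, adjusted p = 0.0380). The aldehyde dehydrogenase *atd3+* was lower (-0.73 ± 0.11, adjusted p = 0.00365), at 0.16 with spike-in scaling. *zym1+*, which MMS raised in diploids, was also lower in untreated diploids (-1.85 ± 0.30, adjusted p = 0.00567).

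The 4 further genes annotated as aldo/keto reductases in RefSeq, SPAC977.14c, SPAC750.01, *osr2+* (SPCC965.06) and SPAC3A11.11c, were not called by edgeR in any of the 5 comparisons. At an unadjusted p under 0.05 edgeR had SPAC977.14c higher in diploid NT than in haploid NT, and DESeq2 called this 1 difference. SPAC977.14c was the most abundant of them, at 2367 ± 1040 CPM in diploid MMS, 1738 ± 163 CPM in haploid MMS, 2092 ± 227 CPM in diploid NT and 1226 ± 139 CPM in haploid NT (SD, n = 3 each). Its protein is 94.5% identical to that of SPAC750.01, so reads may be split between these genes. SPAC750.01 had between 1988 and 18703 counts within haploid NT alone.

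Across the 12 libraries some members followed each other. Pearson's r of log2(CPM + 1) was 0.96 between SPAC26F1.07 and *plr1+*, 0.96 between SPBC215.11c and *plr1+*, and 0.95 between SPAC26F1.07 and SPBC8E4.04. *akr7+*, itself not called under MMS, had a negative r to each member called up in haploid MMS. It ran from -0.59 (SPBC215.11c) to -0.38 (SPBC8E4.04). These values describe 12 libraries that share 4 conditions, so they largely restate the group means. Over all genes tested, those most like SPAC26F1.07 were the proteasome genes *rpt5+* (0.98) and *rpn7+* (0.96), followed by *plr1+*. SPBC8E4.04 was most like the ubiquitin-conjugating *ubc7+* (0.97), the proteasome core gene *pre1+* (0.96) and *caa1+* (0.96). *plr1+* was most like SPAC26F1.07, *trx1+* (0.96) and SPBC215.11c. SPBC215.11c was most like SPAPB24D3.08c (0.97), an NADP-dependent oxidoreductase, then SPBC1271.05c (0.97) and SPAC4A8.14 (0.96). *yak3+* was most like *atg1802+* (0.98), *inh1+* (0.98), the inhibitor of the mitochondrial ATPase, and *taf5+* (0.98), a subunit of TFIID.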

How the data were processed

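Polyadenylated RNA of 12 libraries was sequenced as paired ends. Per the labels, the authors used STAR 2.7.0e for mapping and featureCounts to count reads per gene. The deposited values are raw counts, whole numbers without normalization, for 4857 *S. pombe* genes and 92 ERCC spike-ins. Neither the build nor the annotation version or strand setting is given in the sources used here.

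SPAC977.09c and SPBC1348.10c, which share a reading frame, and genes under 5 reads in 2 or more libraries were left out, so 4584 were tested. Counts were fitted with edgeR 4.0.16 (R 4.3.3), TMM and a mean per condition over all 12 libraries, by the quasi-likelihood test with Benjamini-Hochberg adjustment over all genes. SE is log2FC over the square root of F. Calls needed an absolute log2FC above 0.58 at an adjusted p under 0.05, and the interaction the adjusted p alone. RPKM used gene lengths of the table. Spike-in scaling used 60 transcripts counted in every library. Alternatives were DESeq2 1.42.0, other size factors and filters, fewer groups, replicate blocks and omitted libraries. The fits were tested on simulated data.

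The methods say that cultures were divided. Residuals of same-numbered MMS and NT libraries correlated at 0.560, 0.441 and 0.577 in diploids and at 0.711, 0.647 and 0.499 in haploids, so the numbers were taken to pair them, although haploid MMS 3 also correlated at 0.571 with haploid NT 2.

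The 10 members, the gene lists and the motifs were chosen with earlier results of these data known. Named beside the members were, per called member, the 3 genes most like it, and per list up to 3 called genes with the smallest adjusted p. The listed genes *ccp1+* and SPBC16A3.02c were dropped for their annotation.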

Additional observations from a re-analysis of the deposited data

Results flagged for a closer look

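The MMS response of SPAC26F1.07, in diploids minus that in haploids, was -0.751 on the log2 scale in DESeq2 (adjusted p = 0.0420), past the threshold for a difference between the ploidies. In edgeR the same difference was -0.76 and did not pass after adjustment (adjusted p = 0.999). With TMM scaling all 3 haploid cultures had a larger ratio of MMS over NT than any of the 3 diploid cultures. The gene was flagged from these same counts, so that order is no separate evidence. The share of all genes with that order was not counted. With spike-in scaling the difference was -0.16 (edgeR adjusted p = 0.677), and haploid culture 1 (log2 ratio 0.09) lay below the diploid cultures (0.29 to 0.69).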

How the results depend on the processing

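With median-of-ratios size factors, no low-count filter, or genes kept at 5 reads in 2 libraries, no call of a member changed. Spike-in scaling moved the most. In diploid NT over haploid NT it turned the log2FC of *yak3+* (SPAC1F7.12) to 0.015, SPAC2F3.05c to 0.63, SPAP32A8.02 to 0.89, *akr7+* (SPCC1281.04) to 0.84 and SPBC28F2.05c to 0.58, with 7 members called up and 0 down. In diploid MMS over haploid MMS it turned *yak3+* to 0.62, SPAC26F1.07 to 1.01, SPBC8E4.04 to 1.34, SPAC2F3.05c to 1.38, SPAC19G12.09 to 0.88, SPAP32A8.02 to 1.25, SPBC28F2.05c to 1.34 and *plr1+* (SPAC9E9.11) to 0.97, with 9 called up and 0 down. SPBC215.11c also turned there, to 0.38, without a call. In diploid NT over haploid NT SPAC19G12.09 turned to 0.49, and in haploid MMS over haploid NT SPAP32A8.02 turned to -0.03, both without a call. Spike-in scaling left 0 called up under MMS in both ploidies. Without haploid NT 1 as well, 3 were called up in haploid MMS over haploid NT, and in diploid NT over haploid NT *yak3+* was at 0.20, SPAP32A8.02 at 0.85, *akr7+* at 1.06 and SPBC28F2.05c at 0.87, with 7 called up and 0 down. SPAC2F3.05c (0.49) and SPAC19G12.09 (0.52) had turned there as well, without a call. In that fit 4331 of the 4587 genes tested were called up in diploid NT over haploid NT. The shift of the median gene accounts for these turns of the log2FC by the construction of the scaling.

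DESeq2 called 6 members up in haploid MMS over haploid NT, 2 down in diploid MMS over haploid MMS and 1 in the interaction. Fitting only the 2 conditions compared left 0 down in diploid MMS over haploid MMS. Leaving out 1 library gave 0 to 1 members up in diploid MMS over diploid NT (4 to 50 of all genes), 3 to 5 up in haploid MMS over haploid NT (28 to 103), 0 to 2 down (41 to 151) and 0 to 1 up (20 to 135) in diploid NT over haploid NT, and 0 to 1 down in diploid MMS over haploid MMS (1 to 11). Without haploid culture 1, which was chosen after the data were seen, these were 3 up, 6 up, 3 down with 1 up, and 3 down.

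The culture as a replicate block gave 2 members up in diploids and 6 in haploids and changed no other call. Libraries of the same number did not deviate together across ploidies, from -0.342 to 0.371 in MMS. A block on that number left 0 members down in diploid MMS over haploid MMS.

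Over all genes the calls in diploid MMS over diploid NT were 27 up and 16 down, and 58 and 27 in DESeq2, 69 and 59 with the culture block, and 2 and 1 with spike-in scaling. In haploid MMS over haploid NT they were 75 up and 49 down, 40 and 22 with only those conditions, 98 down with the block, 82 down in DESeq2, and 5 and 159 with spike-in scaling. In diploid NT over haploid NT they were 51 up and 82 down, 77 up in DESeq2, and 3564 and 1 with spike-in scaling. In diploid MMS over haploid MMS they were 14 up and 11 down, 41 and 27 in DESeq2, 0 and 0 with only those conditions, and 4547 and 0 with spike-in scaling. The interaction had 0 in edgeR and 1 in DESeq2.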
